A study of Brachypodium distachyon with 8 samples.

Results

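The cold and heat libraries of a small RNA survey in leaves of Brachypodium distachyon were set against each other, leaving aside the library of unstressed plants and the library of salt-treated plants. All plants were of the wild-type line Bd21, grown at 22 °C before treatment. The cold side held 2 libraries, from plants kept at 4 °C for 6 h and for 24 h. The heat side held 4 libraries at 42 °C, from plants in hot air (1 h, 3 h) and from plants under hot water (1 h, 3 h). These are 6 of the 8 libraries of the study, chosen by their treatment labels. Each condition had 1 library, so the times and the heating methods were the only spread within a side. They are not true replicates, and a p-value below sets the difference between the sides against the spread among unlike conditions. Cold and heat also differed in duration, with no time shared, so temperature and duration cannot be told apart.

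The deposited values are read counts by read length, from 15 to 41 nt, at 3' UTR loci, the untranslated ends of transcripts. A locus here is 1 transcript identifier, and a gene can have several. Of 30815 identifiers in the study, 17099 from 12321 genes had 40 or more reads summed over the 6 libraries and were tested. These held 99.0% of the reads of the 6 libraries. Just inside the minimum were 184 identifiers with 40 reads, and just outside it 152 with 39. The identifiers carry no gene names: none of their 24118 genes matched any of 31335 genes in RefSeq's table (assembly Brachypodium_distachyon_v3.0). No function, coordinate or sequence of a locus is therefore given, and the loci are described by their reads.

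In plants, Dicer-like enzymes cut double-stranded RNA into small RNAs of set lengths. Those of 21 nt include most microRNAs and the trans-acting siRNAs, which guide Argonaute proteins to matching transcripts. Those of 24 nt are mainly the siRNAs of RNA-directed DNA methylation, which silence transposons and repeats. Reads shorter or longer than these classes do not have a Dicer length.

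The 3' UTR reads numbered 4178296 and 2497143 in cold at 6 h and 24 h, and 1942169 to 4622303 in heat. They are only the 3' UTR part of a library and not its sequencing depth. Across the tested loci, the correlation of log2 scaled reads was 0.889 between the 2 cold libraries, 0.795 to 0.862 between heat libraries, and 0.701 to 0.795 between a cold and a heat library. Loci are not independent replicates, and the libraries compared differ in depth. In each of the 6 libraries more entries had a count of 2 than a count of 1, for example 56748 against 28605 in cold at 6 h, and 61.0% to 67.8% of entries were even. The cause was not tested.

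With TMM scaling (edgeR's trimmed mean), more loci were called higher in heat than in cold. By edgeR's quasi-likelihood test with Benjamini-Hochberg adjustment over all 17099 loci, 625 loci (3.66%) differed at adjusted p under 0.05. Of these, 513 loci from 333 genes were higher in heat (3.00% of loci tested) and 112 loci from 82 genes were higher in cold (0.655%). The median log2 difference, cold minus heat, was -3.07 over the heat-higher loci and 2.44 over the cold-higher loci, beside -0.04 over all loci tested. With a side of 0 reads set to a floor of 3 counts per library, these medians were -3.02 and 2.46. In whole leaves, fewer cells of a type and less RNA per cell cannot be told apart. A difference beyond 3 on the log2 scale was found at 274 of the 513 heat-higher and 36 of the 112 cold-higher loci. Over all 17099 loci tested it was found at 497. One beyond 5 was found at 98 and 2 of the called loci, and at 123 of all. At most 3 reads were counted over the cold libraries at 83 of the heat-higher loci. Over the heat libraries this held at 2 of the cold-higher loci. Over all loci tested it held at 166 for cold and 4 for heat. The heat side had more libraries, so these numbers cannot be compared between the sides.

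The heat-higher loci held 7.05% to 9.10% of the reads of each heat library and 1.28% and 2.49% of the cold reads at 6 h and 24 h. The cold-higher loci held 0.884% and 1.48% of the cold reads and 0.0910% to 0.130% of the heat reads. Neither side overlapped the other at any called locus, while over all loci tested the sides did not overlap at 2775 loci with cold above (16.2%) and at 2939 with cold below (17.2%). Identifiers of a gene can repeat the same reads: 82 of the 513 and 25 of the 112 had counts identical to those of another identifier, and none of these matches ran across genes.

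**Figure D1:**
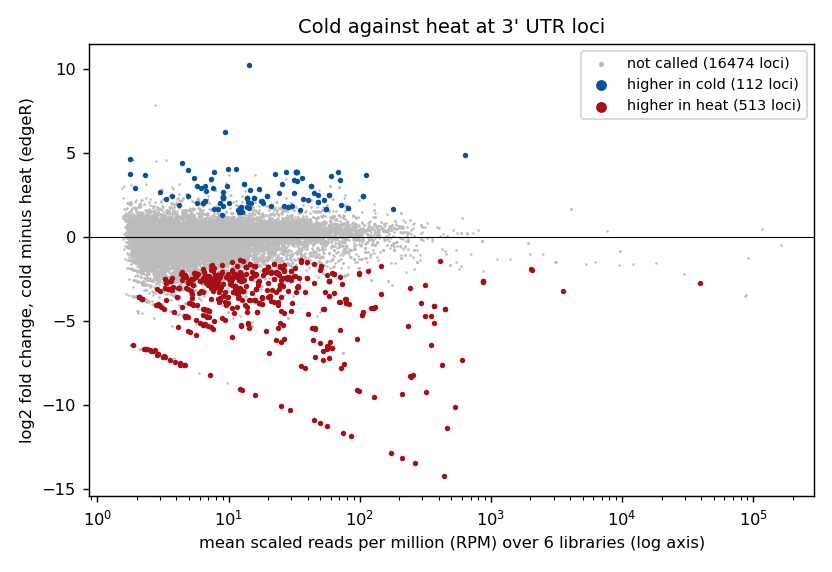
Log2 fold change of cold minus heat (vertical axis, edgeR) against the mean scaled RPM over the 6 libraries (horizontal log axis), 1 point per locus. The 513 loci higher in heat (red) reach further from 0 than the 112 loci higher in cold (blue). A locus could pass the minimum by its heat reads alone, so this reach cannot be compared between the sides. The diagonal line of points at the lower edge is made of loci with 0 reads in every cold library.

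The balance between the directions depended on the scaling. TMM scaling (edgeR's trimmed mean), used throughout, placed the median locus at -0.06 on the log2 scale, whereas dividing by total reads placed it at 0.67. With total reads, 464 loci were higher in cold and 251 in heat, so that 64.9% of calls were cold-higher in place of 17.9%. The sizes of difference given above are likewise those of TMM scaling, and would move with the scaling. The calls also rested on each cold library: without cold at 6 h there were 139 (63 higher in cold and 76 in heat), and without cold at 24 h 130 (38 and 92). Without heat in air at 3 h there were 275, and without heat in water at 3 h 380.

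A second rule, with no p-value but on the same libraries and TMM scaling, gave more loci higher in heat too. Here the 95% Clopper-Pearson interval of the ratio, which covers counting error only, had to lie beyond 2-fold in all 8 pairs of a cold and a heat library. This held at 245 loci (178 genes) higher in heat, 1.43% of loci tested, and at 38 loci (21 genes) higher in cold, 0.222%. Of these, 232 and 38 were also called by edgeR's test. With total reads as the scaling, the rule gave 111 loci higher in heat and 128 higher in cold. Without cold at 6 h, and so over fewer pairs, it gave 387 and 148, and without cold at 24 h 422 and 141.

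The loci ranked first among those higher in heat were almost silent in cold. Bradi2g05380.1 had 1215 and 1428 reads in hot air (1 h, 3 h), 430 and 818 in hot water (1 h, 3 h), and 2 reads in each cold library. In scaled RPM, reads per 1000000 of the TMM-scaled library, this was 272 to 344 in heat, 312 ± 29.8 (SD, n = 4), and 0.438 and 0.457 in cold. The 4 heat libraries lay close together and far above both cold libraries. The heat level was 698 times the cold level over summed reads (95% interval 273 to 2564), and the log2 difference was -9.34 ± 0.48 (SE), with an adjusted p of 0.000287 by edgeR's quasi-likelihood test.

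Bradi5g02040.1 showed the same pattern at a higher level. It had 2728, 3601, 1317 and 1890 reads in heat (air at 1 h and 3 h, then water at 1 h and 3 h) against 2 and 4 reads in cold at 6 h and 24 h. The scaled level was 629 to 979 scaled RPM in heat and 0.438 and 0.914 in cold, with no overlap. The ratio over summed reads was 1141 (95% interval 524 to 3110). The log2 difference was -10.13 ± 0.58 (SE), with an adjusted p of 0.000341 by edgeR's test.

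Reads of these 2 loci were spread over nearly all lengths. At Bradi5g02040.1, reads of 15 to 19 nt made up 33.4% to 41.2% of the heat reads, those of 20 to 22 nt 13.4% to 18.8%, those of 24 nt 4.34% to 6.15%, those of 25 to 29 nt 16.7% to 20.0% and those of 30 nt and longer 13.5% to 19.9%. The commonest single length held 7.29% to 10.6% of its reads in each heat library. At Bradi2g05380.1 that share was 9.38% to 11.5%, and 24 nt reads made up 2.96% to 6.51%. No length dominated either locus.

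No reads at all were counted in either cold library at 37 of the heat-higher loci, beside 46 of all 17099 loci tested. The minimum for testing was set on reads summed over both sides, so such loci passed it by their heat reads alone. The heat side also had more libraries, so numbers of loci without reads cannot be compared between the sides. Of these 37 loci, Bradi1g68440.1 had most heat reads. It had 1444 and 2438 reads in hot air (1 h, 3 h) and 667 and 3585 in hot water (1 h, 3 h). Against a floor of 3 counts per cold library it was at least 980-fold higher in heat by the mean (609-fold to 1777-fold from single heat libraries), with an adjusted p of 0.00127 by edgeR's test. The scaled level was 1193 scaled RPM after 3 h in water and 409 to 533 in the other heat libraries, so 1 library stood well above the rest. Its commonest length, 15 nt, held 8.41% to 12.2% of reads in the 4 heat libraries.

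The loci ranked first among those higher in cold had reads concentrated at a few lengths, as many tested loci had. Bradi4g26230.1 had 669 and 946 reads in cold at 6 h and 24 h, and 48, 54, 15 and 38 in heat (air at 1 h and 3 h, water at 1 h and 3 h). The scaled level was 146 and 216 scaled RPM in cold and 11.2 to 13.6 in heat, without overlap. The mean was 14.7 times higher in cold, the log2 difference was 3.87 ± 0.30 (SE), and the adjusted p was 0.00105 by edgeR's test. A single length of 20 nt held 71.6% and 79.6% of its cold reads, while in heat 20 to 22 nt reads together held 24.1% to 34.2%.

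Bradi1g03900.1 reached the highest level among the cold-higher loci named here. It had 6347 and 9657 reads in cold and 272, 199, 60 and 228 in heat, in the same order of libraries. The scaled level was 1390 and 2206 scaled RPM in cold against 43.5 to 77.0 in heat. The mean was 29.9 times higher in cold, with a log2 difference of 4.90 ± 0.39 (SE) and an adjusted p of 0.00105 by edgeR's test. Its reads were short and long but rarely of Dicer length: 25 nt was commonest in cold at 6 h (43.6%) and 18 nt in cold at 24 h (51.2%), while 20 to 22 nt reads held 2.55% and 2.25%. In heat the commonest length was again 25 or 18 nt, so the locus changed in level while its leading lengths were the same pair.

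At 1 cold-higher locus no heat library had a read, beside 2 of all loci tested. Bradi5g21290.1 had 25 and 353 reads in cold at 6 h and 24 h, and the 2 cold libraries differed widely. Against the floor it was at least 36.4-fold higher in cold by the mean, at least 4.63-fold from cold at 6 h alone and at least 68.2-fold from cold at 24 h alone, with an adjusted p of 0.0405 by edgeR's test, and it was not called in 11 of 18 alternatives, where the adjusted p reached 0.216. Bradi2g05380.1, Bradi5g02040.1, Bradi4g26230.1, Bradi1g03900.1 and Bradi1g68440.1 kept their call and direction under all 18 alternatives of scaling, filter, tool and libraries.

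**Figure D2:**
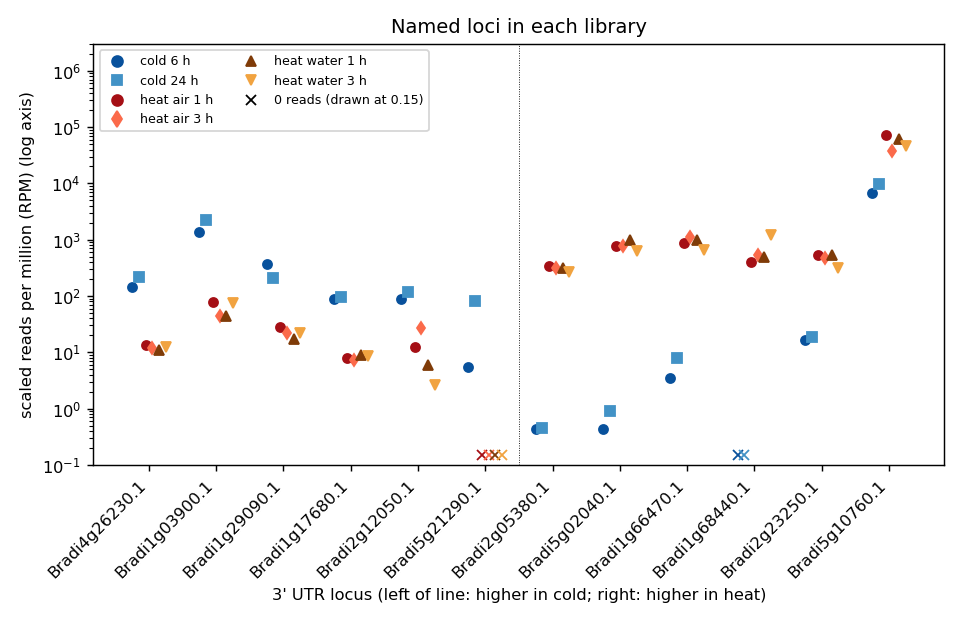
Scaled RPM (vertical log axis) of 12 named loci in each of the 6 libraries, with crosses at 0.15 marking 0 reads. At each of the 12 loci the 2 cold points (blue) lie all above or all below the 4 heat points (red and brown), and in cold Bradi2g05380.1 and Bradi5g02040.1 lie below 1 scaled RPM.

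The 2 groups of called loci differed in the lengths of their reads. Reads of 15 to 19 nt were the largest class at 484 of the 513 heat-higher loci in the heat libraries (94.3%), against 46.2% of all tested loci there. Their 24 nt reads had a median share of 4.42%, against 21% over all tested loci, and their reads of 25 to 29 nt one of 18.2% against 8.33%. Reads of 30 nt and longer had a median share of 14.8% against 5.33%. Reads of 20 to 22 nt had one of 15.6% against 13.7%. By these medians the heat-higher loci held larger shares of short and long reads and smaller shares of 24 nt reads. Pooled over reads, where abundant loci weigh most, their shares of 25 to 29 nt (7.26% against 10.2%) and of 30 nt and longer (5.29% against 24.2%) were below those of all tested loci. The classes span different numbers of lengths, and the rule that picked the loci used reads of all lengths.

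At the 112 cold-higher loci in the cold libraries, 24 nt was the largest class at 42 (37.5%, against 56.3% of all tested loci there), 20 to 22 nt at 20 (17.9% against 9.37%), 25 to 29 nt at 15 (13.4% against 2.39%) and 23 nt at 11 (9.82% against 0.819%). Reads of 15 to 19 nt led at 23 (20.5% against 29.1%). The cold-higher loci were thus of several kinds, and each of the classes from 15 to 29 nt led at some of them.

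The spread of lengths within a locus was measured as the share of its commonest single length, over loci with at least 50 reads on the side in question. Over 495 heat-higher loci in heat the median share was 12.9% (quartiles 10.5% and 17.2%), against 39.1% over all 12198 tested loci with as many reads. It was under 20% at 398 of the 495 (80.4%), against 32.1% of all loci. Over 109 cold-higher loci in cold the median was 58.4%, beside 58.6% over 8859 tested loci. More than 50% of the reads had 1 length at 58 of the 109 loci (53.2%), against 5443 of the 8859 (61.4%), so this was no more common than over all loci. That length lay between 20 and 24 nt at 53 of the 58 and at 5314 of the 5443. Among the 58 it was 24 nt at 37 loci (26 genes), 21 nt at 9 (7 genes), 23 nt at 4 and 20 nt at 3. Summed reads affect this share, and the median was 228 for the heat-higher loci and 132 for all tested loci in heat.

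**Figure D3:**
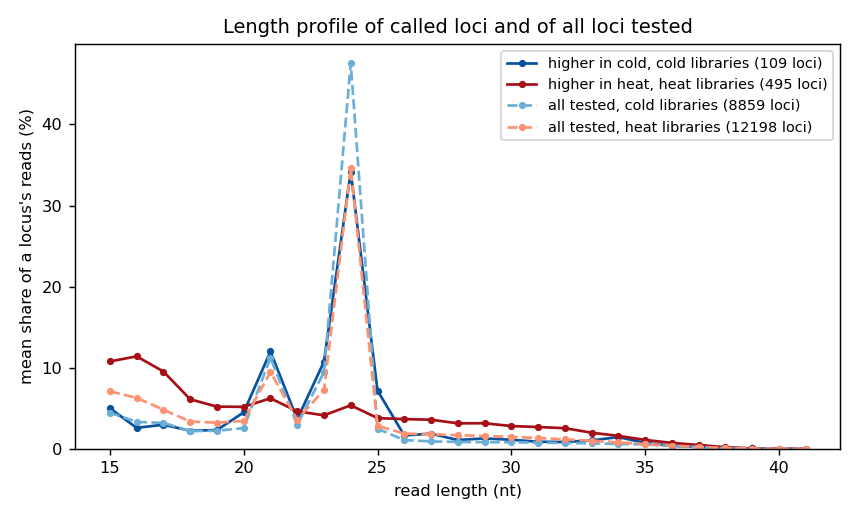
Mean share of a locus's reads (vertical axis, percent) at each read length (horizontal axis, nt), over loci with at least 50 reads on the side plotted. The heat-higher loci in heat (solid red, 495 loci) are highest at 15 to 17 nt and decline toward long reads with small rises at 21 and 24 nt (5.36% at 24 nt, beside 34.6% over all tested loci in heat). The cold-higher loci in cold (solid blue, 109 loci) peak at 21 and 24 nt as all tested loci in cold do, with a lower 24 nt value (34.2% against 47.6%) and a higher 25 nt value (7.18% against 2.49%).

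Each length class was also counted separately, with scaling from its own reads. This scaling put the median locus near 0 (-0.001 on the log2 scale for 24 nt reads), so a shift shared by most loci of a class is not seen. The fewest loci were called in 24 nt reads by edgeR's test, 21 of 7999 higher in heat (0.263%) and 6 in cold (0.0750%). Of these 6, 4 could share most of their reads. In 20 to 22 nt reads, 104 of 5037 loci were higher in heat (2.06%) and 10 in cold (0.199%). In 15 to 19 nt reads, 176 of 6476 were higher in heat (2.72%) and 67 in cold (1.03%). Reads of 25 nt and longer had the highest shares of called loci, 230 of 4130 in heat (5.57%) and 158 in cold (3.83%). Classes differ in reads per locus and in the number of loci tested, and these shares were not tested against each other. Without cold at 6 h the calls were 8 in 24 nt reads, 1 in 20 to 22 nt reads and 32 in 15 to 19 nt reads. Without cold at 24 h they were 8, 21 and 7, and 176 in reads of 25 nt and longer. Without heat in air at 1 h the 24 nt and 20 to 22 nt calls were 9 and 31. Without heat in air at 3 h they were 3 and 17, with 209 in the longest class. Without heat in water at 1 h the calls were 14, 18, 134 and 185 in the 4 classes, from 24 nt to the longest in the order above.

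With scaling factors from all reads instead, the split moved toward heat for 15 to 19 nt reads (318 higher in heat and 31 in cold) and for reads of 25 nt and longer (426 and 83), and 24 nt calls fell to 8 and 6. No locus called over all reads was called in the opposite direction in any class. Of the 513 heat-higher loci, 368 were tested for reads of 25 nt and longer, and 188 of these were called there too. Of the 112 cold-higher loci 50 were tested there and 40 called, while 118 of the 158 loci with more long reads in cold were not called over all reads.

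**Figure D4:**
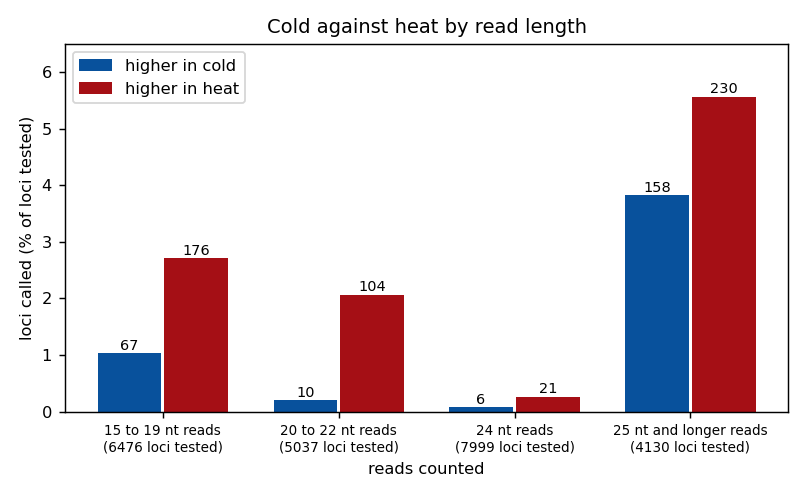
Loci called by edgeR's test, as a percent of loci tested (vertical axis), when only reads of 1 length class were counted, with the number of called loci above each bar. Loci higher in heat (red) outnumber loci higher in cold (blue) in all 4 classes under scaling within the class, and 24 nt reads have the lowest bars.

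Among 24 nt reads, Bradi2g12050.1 ranked first in the cold direction. It had 325 and 493 reads of 24 nt in cold at 6 h and 24 h and 6, 17, 3 and 5 in heat, with a log2 difference of 4.84 ± 0.37 (SE) and an adjusted p of 0.00892 by edgeR's test. In cold, 80.0% and 95.9% of its reads were 24 nt long. In heat in air, where it kept 44 and 126 reads in all, 23 nt was commonest at 38.6% and 57.1%. Over all lengths its adjusted p was 0.0491, and it was not called in 10 of 18 alternatives.

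Bradi2g44070.1 has counts of 24 nt reads nearly equal to those of Bradi2g12050.1, at 327 and 494 in cold. Up to 89.0% of the reads of Bradi2g12050.1 and 81.8% of those of Bradi2g44070.1 could be the same reads counted at both, so the 2 loci cannot be treated as separate. Bradi2g12050.2 has the same counts of 24 nt reads as Bradi2g12050.1, and Bradi1g78220.1 has nearly the same (326 and 497 in cold). Thus 4 of the 6 loci called higher in cold for 24 nt reads could hold mostly the same reads. In the heat direction Bradi1g66470.1 ranked first among 24 nt reads, with 115, 182, 47 and 88 in heat and 0 in both cold libraries (adjusted p 0.00835 by edgeR's test). These were only 3.61% to 4.41% of its heat reads, so its 24 nt reads differed along with all its other lengths.

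In 20 to 22 nt reads the first locus higher in cold was again Bradi4g26230.1, with 532 and 839 such reads in cold and 5 to 14 in heat (log2 difference 5.33, adjusted p 0.00630 by edgeR's test). Its 24 nt reads, 35 and 32 in cold, were not called (adjusted p 0.810). In 15 to 19 nt reads the first was Bradi1g03900.1, with 3164 and 6214 in cold and 42 to 150 in heat (log2 difference 5.35, adjusted p 0.00163). In reads of 25 nt and longer it was Bradi2g10880.6, with 249 and 391 in cold and 5 to 13 in heat (log2 difference 5.22, adjusted p 0.000229). In all 3 of these classes the first locus in the heat direction was Bradi5g02040.1.

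Apart from its level, the length makeup of a locus could differ between cold and heat. A test of the shares of 6 length classes within each locus (edgeR's diffSpliceDGE) called 125 of 10407 loci (1.20%), from 83 genes. The class most raised in cold was 24 nt at 72 of these, 23 nt at 25 and 20 to 22 nt at 13. The class most raised in heat was 30 nt and longer at 45, 15 to 19 nt at 44 and 25 to 29 nt at 19, and it was 23 nt at 0 of the 125. Matching counts over all 10407 loci were not computed. Over all 3' UTR reads the 24 nt and 23 nt shares were also higher in cold, so no trait of the called loci is read from these counts. A changed makeup was called at 14 of 99 cold-higher loci (14.1%), 20 of 410 heat-higher loci (4.88%) and 91 of 9898 loci with no called difference in level (0.919%). Level and makeup were called from the same counts, so the 2 calls are not independent. Reads also differed, with medians over the 6 libraries of 351 at all cold-higher, 234 at all heat-higher and 138.5 at all uncalled loci. The calls depended on each cold library, with 4 left without cold at 6 h and 13 without cold at 24 h, and on heat in air, with 78 left without 1 h and 50 without 3 h.

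Bradi2g23250.1, the first locus by this test (adjusted p 1.08e-05), was heat-higher, with 1876, 2153, 721 and 941 reads in heat against 76 and 83 in cold. Of the few cold reads, 59.2% and 43.4% were 24 nt long. In heat the 24 nt share was 3.25% to 5.44%. The 24 nt reads were not called on their own (45 and 36 in cold against 26 to 102 in heat, adjusted p 0.299), whereas its 15 to 19 nt reads were higher in heat (log2 difference -4.84, adjusted p 0.00853 by edgeR's test). Its 20 to 22 nt reads were also higher in heat (log2 difference -6.19, adjusted p 0.00843).

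At Bradi1g29090.1 the change of level and of makeup went together. It had 1687 and 904 reads in cold and 100, 101, 23 and 65 in heat, with a log2 difference of 3.68 ± 0.35 (SE) and an adjusted p of 0.00138 by edgeR's test. A length of 23 nt held 81.0% and 73.3% of its cold reads and 6.93% to 17.4% of its heat reads (adjusted p of the makeup 0.000139, and 0.0878 without cold at 6 h). Its 24 nt reads were also called higher in cold (log2 difference 2.68, adjusted p 0.0472 by edgeR's test). So were its reads of 25 nt and longer (1.98, adjusted p 0.0426). The number of 15 to 19 nt reads, 49 and 36 in cold and 9 to 39 in heat, was not called, nor was that of 20 to 22 nt reads.

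The other 2 loci named by this test were also higher in cold over all reads, although Bradi2g44070.1 lost that call in 4 of 18 alternatives (adjusted p 0.0161 with all 6 libraries, and 0.0627 and 0.0914 without cold at 6 h and at 24 h). Bradi1g17680.1 had 396 and 425 reads in cold and 12 to 34 in heat, with 24 nt at 59.8% of reads in both cold libraries and at 0% to 33.3% in heat (adjusted p of the makeup 0.000323). That call was lost with single lengths as classes (adjusted p 1) and without either cold library (0.0878 and 0.0575). Bradi2g44070.1 had 24 nt at 78.4% and 93.4% of its cold reads and at 8.40% to 30% of its heat reads, where 20 to 22 nt reads held 32.0% to 68.7% (adjusted p of the makeup 0.000323, and 0.0543 without cold at 24 h).

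The 10 most abundant loci held 59.1% and 38.9% of reads in cold and 56.2% to 71.3% in heat, which overlapped (exact permutation test, two-sided, p = 0.267). With 2 libraries against 4 the smallest p such a test can give is 0.133. By edgeR's test with TMM scaling and the 40-read minimum, Bradi5g10760.1 alone of the 10 differed in level. It had 31386 and 42324 reads in cold and 81938 to 261104 in heat, or 6873 and 9670 against 37802 to 73914 scaled RPM. The log2 difference was -2.73 ± 0.53 (SE), with an adjusted p of 0.0312, and the call was lost in 8 alternatives, among them each cold library left out (0.205 without 6 h and 0.154 without 24 h) and total reads (0.0525). Most of its reads were 16 nt long, at 46.1% and 62.5% in cold and 78.3% to 89.2% in heat.

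Bradi1g05790.1, the second most abundant locus by mean share, was not called in level, while its length makeup was called. It had 1130920 and 173090 reads in cold and 164938 to 477474 in heat, with overlap, and a log2 difference of 0.48 ± 0.73 (SE; adjusted p 0.728 by edgeR's test). Without cold at 6 h this was -1.37 (adjusted p 0.511). Reads of 20 to 22 nt numbered 11022 and 20276 in cold and 320748, 167053, 95577 and 179041 in heat (air at 1 h and 3 h, water at 1 h and 3 h), with a log2 difference of -4.21 and an adjusted p of 0.0152 (0.0877 without cold at 6 h and 0.0535 without heat in water at 1 h). Reads of 25 nt and longer were higher in cold, at 1114785 and 147811 against 44745 to 132612 (log2 difference 2.79, adjusted p 0.0419). Scaled by the reads of that class, they were 971472 and 142968 RPM in cold and 25295 to 103640 in heat, so cold at 6 h carried most of this difference. Without cold at 6 h the log2 difference was 0.82 (adjusted p 0.696), and the call was also lost without heat in air at 3 h (0.0834), without either water library (0.108 and 0.167) and with all-read scaling (0.0923). Without cold at 24 h the log2 difference was 3.59 (adjusted p 0.0331). The largest class was thus 30 nt and longer in cold, at 98.1% and 83.5%, and 20 to 22 nt in heat, at 57.9% to 70.5%. The adjusted p for its makeup was 0.000567. This locus, picked for its abundance, was described by class after its values were seen.

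The other 8 abundant loci were not called over all reads, with adjusted p from 0.0608 (Bradi2g06470.1) to 0.643 (Bradi4g27190.1) by edgeR's test. Of these, Bradi2g06470.1 was called lower in cold in 4 of its alternatives (DESeq2, no filter, a filter of 200 reads, and without heat in water at 1 h). Bradi2g13080.1 and Bradi3g27270.1 were called lower in cold with DESeq2 and with total reads, and Bradi3g13900.1 and Bradi5g00200.1 with DESeq2. Bradi3g27270.1, whose commonest length was 31 nt in all 6 libraries, had 74723 and 26285 reads in cold and 87872 to 537743 in heat. Its heat libraries ranged from 19207 to 241393 scaled RPM, and the adjusted p was 0.114. All of its reads could also be counted at Bradi2g13080.1 (adjusted p 0.117), for which they are 98.7% of the reads.

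Over all 3' UTR reads, the share of 24 nt reads was 18.5% and 27.6% in cold at 6 h and 24 h. In heat it was 10.3% and 16.0% in air at 1 h and 3 h and 9.57% and 10.3% in water at 1 h and 3 h, all below cold. The difference of the means was 11.5 percentage points (exact permutation test, two-sided, p = 0.133, the smallest this design allows; 0.267 adjusted over 6 length classes). Without cold at 24 h the difference was 6.98 points. Cold stayed above heat when the most abundant loci were left out: without the first 10 the share was 42.5% and 43.3% in cold and 26.0% to 33.3% in heat, and without the first 100 it was 50.6% and 51.1% against 33.9% to 41.4%.

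Other length classes moved less, and some changed when the most abundant loci were left out. Reads of 23 nt were 4.53% and 5.72% in cold and 2.54% to 4.18% in heat, and reads of 25 to 29 nt 7.21% and 8.20% against 9.67% to 10.7%, both without overlap (exact permutation p = 0.133). Reads of 15 to 19 nt were 17.2% and 22.8% in cold and 21.9% to 34.8% in heat, which overlapped. Without the 10 most abundant loci they were 14.3% and 16.0% against 21.7% to 28.9%, without overlap. Without the first 100 the sides did not overlap either, with means of 13.3% in cold and 21.6% in heat. Reads of 30 nt and longer had no common direction over all loci, with 36.3% and 15.9% in cold and 13.4% to 37.7% in heat. Without the 100 most abundant loci their means were 3.99% in cold and 6.68% in heat, without overlap.

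**Figure D5:**
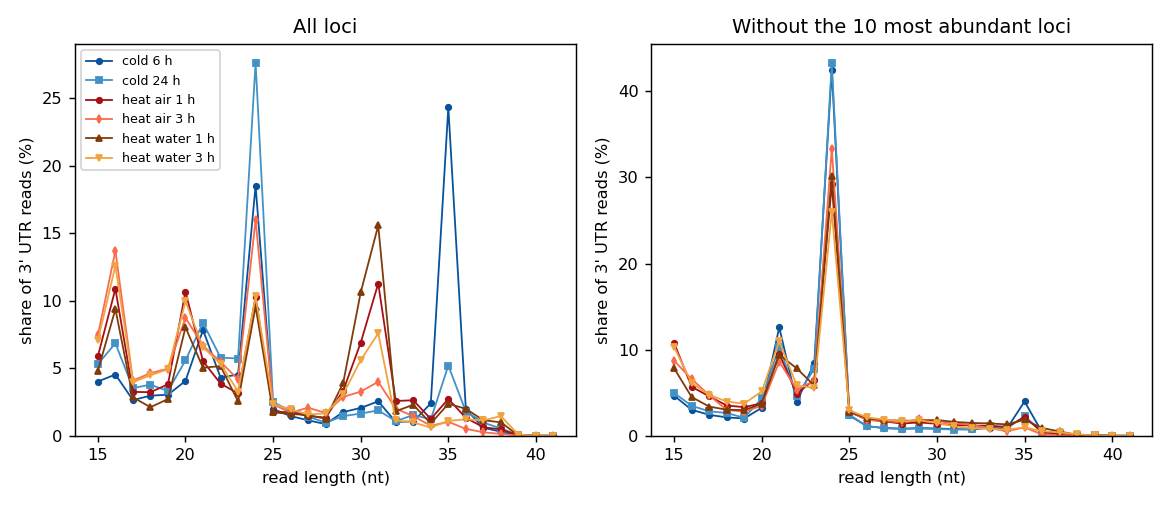
Share of 3' UTR reads (vertical axis, percent) at each read length (horizontal axis, nt) in each library, for all loci (left) and without the 10 most abundant loci (right). In both panels the 2 cold libraries (blue) lie above the heat libraries at 24 nt. The 35 nt peak of cold at 6 h (24.33% of reads) and the 31 nt peaks of the heat libraries at the left are small or gone at the right.

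Heat in air and heat in water each gave fewer calls than both together. With the 2 air libraries 199 of 17099 loci were higher in heat and 31 in cold, and with the 2 water libraries 191 and 30. These comparisons share the cold libraries. Of the 513 heat-higher loci 98 were called in both, and of the 112 cold-higher loci 12. Each had 2 libraries against 2, so a call missing from 1 of them does not show a difference between the methods. All 513 and all 112 kept their direction in both, which was largely fixed because the sides did not overlap at any called locus. A direct contrast of water minus air, added after the data were seen, called 0 of 17099 loci by edgeR's test, with 1020 at an unadjusted p under 0.05. At Bradi2g05380.1 the log2 difference of water minus air was -0.15 ± 0.31 (SE), at Bradi5g02040.1 0.04 ± 0.39 and at Bradi4g26230.1 -0.09 ± 0.37. Bradi2g12050.1 had the largest such value among the loci named here, -2.31 ± 0.58, with an adjusted p of 0.709.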

How the data were processed

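The authors deposited raw counts of small RNA reads per 3' UTR identifier and read length, so named in the file headers. The submitters' processing notes list bedtools 2.10.0, Bowtie 0.12.7 and CASAVA, without their roles. Genome build and annotation were not given in the sources used here. Nor were strand use and the treatment of multiply mapping reads, so reads of overlapping or near-identical loci can be counted at each. The labels' protocols name 2 library kits without tying them to libraries.

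Counts were summed over lengths per identifier, and identifiers with 40 or more over the 6 libraries were tested with edgeR 4.0.16 (R 4.3.3; TMM scaling, glmQLFTest, Benjamini-Hochberg, adjusted p under 0.05). Length classes were fitted with their own scaling. The SE of a log2 difference was back-calculated from the test, as its absolute value over the square root of the F statistic. Length makeup used diffSpliceDGE on classes of 20 or more counts. Scaled RPM is reads per 1000000 of the TMM effective library. Correlations used log2 with a pseudocount of 0.5. Ratios have exact Clopper-Pearson 95% intervals, and ratios, intervals and floors (3 counts per library) cover counting error only, since amplified reads are not independent molecules. Descriptions used Python 3.11.15, numpy 2.4.6, pandas 2.3.3, scipy 1.17.1 and matplotlib 3.10.9. The fits were also run on simulated counts, drawn as if the libraries of a side were replicates. Those runs check the computation and not the calls in these data.

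Named loci were the first 2 per direction by p among called, non-overlapping loci, the first 1 per direction for each length class, the first 4 for makeup, the 10 most abundant, and per direction the locus with 0 reads on one side and most on the other. The members, the lists and the named-locus rule were chosen with earlier results of these data known. Gene lists were not run, because identifiers could not be joined to names. Alternatives were other scalings (RLE, total reads), DESeq2 1.42.0, other filters (none, 200 counts), reads of 20 to 24 nt, 1 identifier per gene, single heat methods, leaving out each library or the most abundant loci, and, added after seeing the data, a 2-fold threshold (glmTreat), library sizes outside the 100 most abundant loci, and the water minus air contrast. The commonest-length description was also added after the data were seen.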

Additional observations from a re-analysis of the deposited data

Results flagged for a closer look

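In 30 groups of 4 heat libraries checked for 1 library standing apart, 2 passed Dixon's 95% critical value. Chance alone passes about 1 in 20 such groups. At Bradi1g68440.1 the scaled reads after 3 h in hot water, 1193 scaled RPM, lay apart from 409 to 533 in the other heat libraries (ratio of gap to range 0.842). The share of 24 nt reads in heat in air at 3 h, 16.0%, lay apart from 9.57% to 10.3% in the other heat libraries (0.884).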

How the results depend on the processing

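The 625 called loci became 1278 with DESeq2 (225 higher in cold, 1053 in heat; loci with no adjusted p left out), 208 with reads of 20 to 24 nt, 397 with 1 identifier per gene, 230 and 221 with heat in air or water only, and 211 with the added 2-fold threshold. Leaving out 1 library gave 130 to 593. For 24 nt reads, 27 calls became 14 with all-read scaling and 3 to 22 with 1 library left out. Leaving out 1 library gave 1 to 93 calls (114 with all) for 20 to 22 nt reads, 7 to 201 (243) for 15 to 19 nt, 176 to 377 (388) for 25 nt and longer, and 4 to 136 (125) for length makeup, which had 83 with single lengths. The 2-fold rule in all library pairs (283 loci) gave 108 at 4-fold and 309 to 563 with 1 library left out. In each fit that drops a cold library, the lone cold library is assumed to vary like the heat libraries. The difference of cold minus heat in the share of 30 nt and longer reads, 0.652 points, reversed to -0.309 and -2.69 without the 10 and 100 most abundant loci and ranged from -9.55 to 10.9 with 1 library left out. That of 20 to 22 nt reads, -2.27 points, reversed to 0.0906 without the 100 most abundant loci. Bradi1g05790.1 reversed to a log2 difference of -4.43 (adjusted p 0.0114) with reads of 20 to 24 nt, where its long reads are not counted. Otherwise the cause was not tested. Of the remaining settings, 83 values answering a comparison stayed within their limits, and for single loci 437 kept their call, 40 lost it and 10 gained it. No paired analysis was possible because the numbers of the libraries only name times and methods, which differ between cold and heat.

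With 1 library per condition, no call has a replicate check. Loci under 40 reads (13535 identifiers) were not tested, and a count of 0 allows up to 3 reads per library, or 0.656 to 2.23 scaled RPM.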

Other observations

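The unstressed and salt libraries took no part in the fits, and their reads at the called loci give a further description. Scaled with all 8 libraries, the unstressed library was nearer the cold mean than the heat mean (log2, pseudocount 0.5) at 404 of the 513 heat-higher loci, 211 of which had no unstressed reads. It was nearer the heat mean at 72 of the 112 cold-higher loci. Of the 513, the unstressed library lay below every cold library at 206 and above every cold library at 205. Of the 112, it lay below every cold library at 88 and above every cold library at 11. The salt library was nearer the cold mean at 293 of the 513 and nearer the heat mean at 74 of the 112. The matching shares over all tested loci were not computed, so no likeness between conditions is read from these counts. Bradi5g02040.1 had 0 reads unstressed and 11 under salt, Bradi2g05380.1 had 0 and 2, and Bradi1g68440.1 had 0 and 10. Bradi4g26230.1 had 85 and 138, and Bradi1g03900.1 had 67 and 100. The unstressed library listed 15765 loci, against 20883 to 26825 in the 6 libraries compared.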
